A study of Rattus norvegicus with 9 samples.

Results

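The genes described here are those whose level was highest in BNPMT-treated rat nucleus pulposus cells, which fill the soft centre of the disc between vertebrae. A protein-coding gene was taken where its mean in BNPMT was at least 2 times its mean in NC and at least 2 times its mean in SEN, and at least 2 CPM (the count scaled to the library's total). Genes of several name families and 7 single genes (among them Ldha, Spp1 and Cdkn2a) were left out by name, which removed 13 genes that met the limits. The rule found 144 members among 22324 genes, or among 10546 protein-coding genes of at least 2 CPM in BNPMT outside the left-out names. The members were thus chosen by their measured CPM in all 3 groups, so their height in BNPMT is a description and was not tested.

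Primary wild-type rat nucleus pulposus cells were grown in high-glucose medium with serum, and their poly(A) RNA was sequenced in 3 libraries per group. NC is the control by its name. SEN cells were driven into senescence by doxorubicin, which damages DNA, at 200 nM for 24 h followed by 6 days in fresh medium. BNPMT is labelled as an intervention in that doxorubicin-induced senescence, and the labels give neither its composition nor its dose and timing. The same doxorubicin text stands on the NC samples too, so that NC received no drug rests on its name alone. The labels do not say that the 3 libraries of a group came from separate cultures or animals, so the spread behind each p-value is that of these libraries and may be only technical.

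Library totals were 31206834 to 41971877 counts. The cartilage-like markers Col2a1 (4571 ± 119 CPM in NC and 1962 ± 87.1 in BNPMT, SD, n = 3) and Acan were high, whereas the notochord marker Tbxt was near 0 (0.0932 ± 0.0473 CPM in NC) and Krt18 and Krt19 were under 1 CPM in all groups. Other markers of the nucleus pulposus list were expressed, with NC means of 175 CPM for Car3, 31.5 for Sox9, 29.9 for Cd24 and 4.16 for Krt8. Of the 16 markers of that list, 4 were under 1 CPM in BNPMT. No member was on any of the 11 cell type lists. The rule leaves out some of their genes by name, such as Col2a1, and many others were under 1 CPM in BNPMT. Members were also only 1.37% of the 10546 genes, so nothing is read from this about cell types. The summed level of 14 macrophage and leukocyte markers ranged over NC libraries from 14.8 to 15.9 CPM, over SEN libraries from 38.0 to 41.8 and over BNPMT libraries from 19.5 to 21.3. These sums rest on few genes, since 12 of the 14 were under 1 CPM in BNPMT. Cd68 alone stood at 0.464 ± 0.298 CPM in NC, 22.6 ± 1.81 in SEN and 0.527 ± 0.147 in BNPMT. The part of these markers in the members' levels was not tested. In NC libraries 16 chondrocyte markers summed to 9219 to 9465 CPM, in SEN to 14240 to 15272 and in BNPMT to 4007 to 4589. Of the 16, 14 were lower in BNPMT than NC and none higher, beside 26.5% and 26.3% of all tested genes. For 16 annulus and fibroblast markers the sums were 46004 to 47781, 44546 to 44824 and 21849 to 25326 CPM, and the part of both lists in the members' levels was not tested either. In such bulk samples, fewer cells of a type and less RNA per cell cannot be told apart. BNPMT 1 stood apart from BNPMT 2 and 3 in a way that followed gene length, which is described with the members' lengths. SEN 1 also differed more from SEN 2 and 3 (chi-square per degree of freedom 17.7 and 14.1) than those differed from each other (6.94). Without SEN 1, 23 members rose and 55 fell in SEN against NC, and 5541 and 5654 of all 15122 tested genes did. With all libraries 29 members rose and 51 fell, beside 5628 and 5754 of all 14956 tested genes.

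Senescent cells have left the cell cycle for good and secrete inflammatory and matrix-degrading proteins. Nucleus pulposus cells live in a disc with little oxygen and draw much of their energy from glycolysis. The mevalonate pathway turns acetyl-CoA into isoprenoids and cholesterol, and its genes are controlled together by the sterol-sensing SREBP factors. BMP and activin ligands of the TGF-beta family guide skeletal development and are held back by secreted antagonists.

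The members took 0.423, 0.430 and 0.440% of all counts in NC 1, 2 and 3. Their share was 0.326, 0.289 and 0.293% in SEN 1, 2 and 3, and 0.873, 1.03 and 1.02% in BNPMT 1, 2 and 3. The groups did not overlap, with BNPMT above NC and NC above SEN. All 144 members had each BNPMT library above every other library, beside 33.5% of the 10546 genes, and nothing is read from this since the rule used these levels. Most members lay near the limit. The ratio of the BNPMT mean to the higher of the other means had a median of 2.24 and was at least 3 in 23 members and at least 4 in 8. In 121 members NC was above SEN in mean CPM, and in 23 SEN was above NC. The ratio of the SEN mean to the NC mean had a median of 0.696 in members and 0.673 over the 10546 genes. NC above SEN in CPM was thus also the common order among those genes and does not set the members apart. All NC libraries lay above all SEN libraries in 99 members, beside 68.1% of the 10546 genes, and all SEN libraries above all NC libraries in 8, beside 19.9%.

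**Figure D1:**
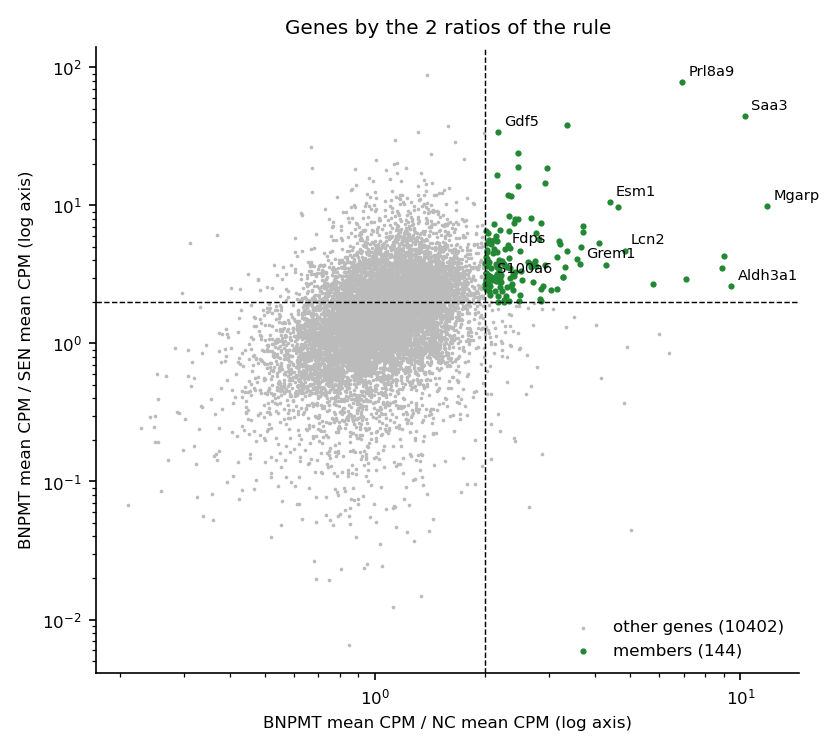
Ratio of the BNPMT mean CPM to the NC mean (x axis, log scale) and to the SEN mean (y axis, log scale) for protein-coding genes of at least 2 CPM in BNPMT. The dashed lines are the limits of 2, green points are the 144 members, and most of them lie close to the line of the NC ratio.

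Promoters of members from the mevalonate and sterol pathway are shown because 5 members belong to it. Of these, Fdps, Mvd and Ebp are printed because their windows hold a CCAAT box. The window of Acat2 holds none, and Pmvk matched no promoter. Fdps makes farnesyl diphosphate, Mvd makes isopentenyl diphosphate, and Ebp is a sterol isomerase of the late steps. Each sequence is the 250 bases before the gene's start, 5′ to 3′ on the gene's strand, from RefSeq on GRCr8, and capitals mark CCAAT boxes (CCAAT, or ATTGG where it reads on the other strand). Fdps lies at chr2:176804817-176805066 on the minus strand and holds 2 boxes, Mvd at chr19:67414975-67415224 on the minus strand holds 1, and Ebp at chrX:16971212-16971461 on the plus strand holds 2.
Fdps: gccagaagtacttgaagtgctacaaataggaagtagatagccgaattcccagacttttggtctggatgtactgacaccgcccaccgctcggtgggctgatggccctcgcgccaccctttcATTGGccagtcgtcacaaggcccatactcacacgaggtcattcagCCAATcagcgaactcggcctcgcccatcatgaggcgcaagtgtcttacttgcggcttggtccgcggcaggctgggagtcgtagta
Mvd: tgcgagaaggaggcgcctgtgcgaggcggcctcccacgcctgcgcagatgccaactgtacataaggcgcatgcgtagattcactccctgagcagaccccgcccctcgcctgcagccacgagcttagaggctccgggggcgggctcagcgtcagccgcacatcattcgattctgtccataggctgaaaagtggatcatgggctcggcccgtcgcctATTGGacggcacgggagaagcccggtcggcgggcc
Ebp: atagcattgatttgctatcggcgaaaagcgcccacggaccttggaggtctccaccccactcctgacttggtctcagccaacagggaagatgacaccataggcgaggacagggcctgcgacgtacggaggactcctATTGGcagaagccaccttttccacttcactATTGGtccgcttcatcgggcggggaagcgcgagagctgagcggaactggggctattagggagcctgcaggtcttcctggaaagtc

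Promoters of members known as glycolytic or hypoxia-related genes are shown with the ACGTG core of the hypoxia response element (CACGT on the other strand) in capitals. The window of Pfkl, another such member, holds no match and is not printed. Aldoc is an aldolase of glycolysis, Mgarp a mitochondrial protein, and Fam162a a hypoxia-responsive mitochondrial protein. Aldoc lies at chr10:63715294-63715543 on the plus strand, Mgarp at chr2:137590295-137590544 on the minus strand, and Fam162a at chr11:78186051-78186300 on the plus strand, and each holds 1 match.
Aldoc: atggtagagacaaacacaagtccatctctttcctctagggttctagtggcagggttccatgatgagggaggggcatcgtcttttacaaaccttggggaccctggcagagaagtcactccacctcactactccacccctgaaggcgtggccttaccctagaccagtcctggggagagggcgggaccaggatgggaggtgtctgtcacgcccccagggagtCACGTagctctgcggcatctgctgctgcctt
Mgarp: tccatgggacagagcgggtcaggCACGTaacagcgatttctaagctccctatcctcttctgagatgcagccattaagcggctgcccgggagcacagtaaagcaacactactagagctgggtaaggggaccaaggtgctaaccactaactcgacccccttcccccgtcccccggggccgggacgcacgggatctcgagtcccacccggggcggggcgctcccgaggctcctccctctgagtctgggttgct
Fam162a: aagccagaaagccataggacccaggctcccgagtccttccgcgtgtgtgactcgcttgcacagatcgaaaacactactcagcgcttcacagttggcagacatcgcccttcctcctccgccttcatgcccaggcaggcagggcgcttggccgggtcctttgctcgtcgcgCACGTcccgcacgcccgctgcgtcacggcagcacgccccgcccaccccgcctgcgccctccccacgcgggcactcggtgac

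Of the members, 120 matched a promoter of the RefSeq table. A CCAAT box on either strand stood in 36.7% of these members' windows, in 35.9% of those of 8743 expressed protein-coding genes and in 34.3% of all 27457 windows. The core ACGTG stood in 18.3% of members, 23.0% of expressed genes and 16.9% of all windows. Both shares were thus close to those of other genes. The sterol response element TCACNCCAC stood in 5 members (4.17%), beside 1.02% of expressed genes and 0.976% of all windows; none of the 5 (Crisp3, Med31, Aldoc, LOC100360750 and RT1-CE4) is a sterol synthesis gene. A match is a description of letters and shows no binding.

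Sterol synthesis was represented by 5 members. Fdps stood at 405, 401 and 404 CPM in NC, 198, 189 and 185 in SEN, but 805, 969 and 971 in BNPMT. SEN lay lowest and BNPMT highest with no overlap, and Fdps fell in SEN against NC by 0.63 ± 0.07 on the log2 scale (SE; edgeR quasi-likelihood test, adjusted p = 2.67e-06). Acat2, which joins acetyl-CoA units in the cytosol, stood at 176, 165 and 168 CPM in NC, 111, 108 and 109 in SEN, but 362, 401 and 407 in BNPMT. Acat2 fell in SEN by 0.18 ± 0.06 (adjusted p = 0.0152), a call that was lost with DESeq2's size factors (adjusted p = 0.0856). Mvd stood at 49.5, 49.3 and 59.1 CPM in NC, 40.5, 35.5 and 39.3 in SEN, but 102, 113 and 114 in BNPMT. Pmvk, the kinase one step before Mvd, had a mean of 33.5 ± 1.88 CPM in NC (SD, n = 3, as for all such means), 23.9 ± 1.995 in SEN and 70.8 ± 6.57 in BNPMT. Ebp, named after its values were seen, stood at 25.4 ± 1.46, 17.1 ± 2.21 and 52.2 ± 4.45 CPM in the same order. None of Mvd, Pmvk and Ebp passed the test in SEN against NC (adjusted p = 0.998, 0.717 and 0.313).

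The other genes of the cholesterol and fatty acid list, 30 tested genes that are not members, were higher in BNPMT than NC in 20 and lower in 4, beside 26.3% of all tested genes higher and 26.5% lower. Against SEN, 16 were higher and 10 lower, beside 40.7% and 39.9% of all genes. The median log2 difference was 0.42 against NC and 0.21 against SEN, beside 0.00 and 0.02 over all genes. Squalene synthase Fdft1 stood at 131 ± 1.61 CPM in NC, 32.4 ± 1.63 in SEN and 208 ± 5.55 in BNPMT. Dhcr7, the last enzyme of cholesterol synthesis, stood at 59.8 ± 1.42, 15.4 ± 0.438 and 98.5 ± 2.66 CPM. The isomerase Idi1 had another order, with 93.3 ± 11.9 CPM in NC, 384 ± 54.8 in SEN and 129 ± 5.82 in BNPMT. These non-members were named after their values were seen.

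**Figure D2:**
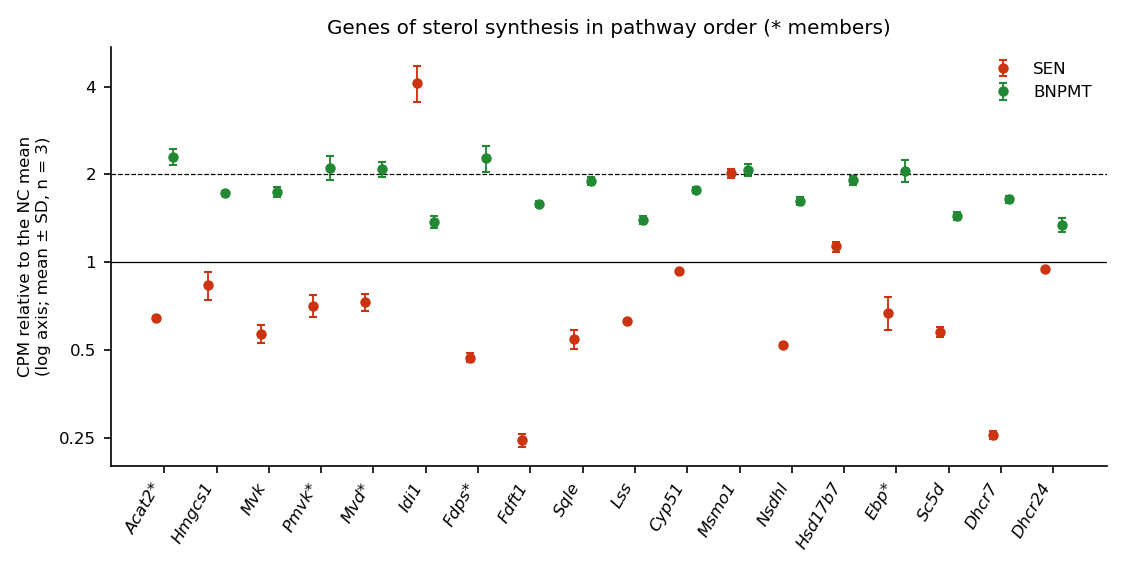
Mean CPM of SEN (red) and BNPMT (green) relative to the NC mean for 18 genes of sterol synthesis in pathway order (y axis, log scale; bars are the SD over 3 libraries divided by the NC mean, members starred). The 5 members lie above 2 in BNPMT and below 1 in SEN, while Idi1 is highest in SEN. Most genes lie below 1 in SEN on this scale, with a median of 0.673 over the 10546 genes.

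Glycolysis and glycogen use gave further members. Aldoc stood at 18.9, 17.7 and 19.1 CPM in NC, 14.2, 12.02 and 13.9 in SEN, but 58.9, 64.4 and 63.9 in BNPMT. Pfkl, the liver form of phosphofructokinase, stood at 81.0, 77.0 and 80.1 CPM in NC, 45.9, 41.0 and 41.99 in SEN, but 156, 164 and 165 in BNPMT. Pfkl fell in SEN by 0.43 ± 0.06 on the log2 scale (adjusted p = 1.97e-05), and Aldoc did not pass (adjusted p = 0.825). Pygl, a glycogen phosphorylase, stood at 16.2 ± 1.78 CPM in NC, 11.97 ± 0.509 in SEN and 50.9 ± 2.17 in BNPMT, and Fam162a at 37.5 ± 1.51, 33.0 ± 2.28 and 94.8 ± 11.7; both were named after their values were seen. Of 34 other tested genes on the glycolysis and hypoxia list, 24 were higher and 3 lower in BNPMT than NC, beside 26.3% and 26.5% of all genes. Against SEN, 12 were higher and 16 lower, beside 40.7% and 39.9%. The second split depended on the scale, with 19 higher and 14 lower by total counts. On that scale 57.3% of all genes were higher and 25.8% lower in BNPMT than SEN, and the median of all genes moved from 0.02 to 0.52. The member RGD1562690 is annotated as similar to Ldha, and reads it shares with Ldha could have been split between them, so its level is uncertain.

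Amino sugar metabolism, which supplies the sugars of glycosaminoglycans, held 4 members of its 42 expressed genes by the deposited KEGG annotation, beside 144 of 10546 (1.37%) for all such genes. This group was chosen after its values were seen. Uap1l1 stood at 67.1 ± 1.85 CPM in NC, 49.97 ± 0.966 in SEN and 160 ± 10.9 in BNPMT. Galk2 stood at 41.2 ± 1.65, 20.4 ± 2.89 and 83.4 ± 5.996 CPM, Renbp at 25.5 ± 1.95, 22.7 ± 2.85 and 54.4 ± 4.68, and Amdhd2 at 20.8 ± 0.682, 14.7 ± 1.14 and 44.4 ± 5.07. Terpenoid backbone synthesis held 4 members of 20, namely Acat2, Fdps, Mvd and Pmvk.

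Among secreted regulators of the TGF-beta family, Grem1, a BMP antagonist, stood at 127, 128 and 134 CPM in NC, 120, 126 and 132 in SEN, but 499, 450 and 462 in BNPMT. NC and SEN overlapped in CPM. On the TMM scale of the test, which assumes that most genes do not differ, Grem1 rose in SEN by 0.41 ± 0.06 (adjusted p = 1.17e-05), whereas by total counts it was -0.04 (adjusted p = 0.516). Inhbb, an activin subunit, stood at 2.64, 2.64 and 2.77 CPM in NC, 2.11, 1.99 and 2.997 in SEN, but 11.3, 8.41 and 9.05 in BNPMT. Gdf5, a joint-forming ligand linked to disc health, stood at 7.56, 6.77 and 8.02 CPM in NC, 0.443, 0.737 and 0.254 in SEN, but 14.4, 16.9 and 17.1 in BNPMT. Gdf5 had the largest called fall among members in SEN, of 3.53 ± 0.22 on the log2 scale (adjusted p = 5.26e-09). Of 42 other tested genes of the TGF-beta and BMP list, 10 were higher and 15 lower in BNPMT than NC, beside 26.3% and 26.5% of all genes. Against SEN, 14 were higher and 21 lower, beside 40.7% and 39.9%. By total counts the split against SEN was 23 higher and 16 lower, beside 57.3% and 25.8% of all genes.

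Hgf, hepatocyte growth factor, stood at 1.68, 2.03 and 1.70 CPM in NC, 0.182, 0.288 and 0.226 in SEN, but 5.45, 3.36 and 4.50 in BNPMT, and fell in SEN by 2.51 ± 0.30 (adjusted p = 4.03e-06). Smoc2, a calcium-binding matrix protein, stood at 136 ± 3.12 CPM in NC, 44.0 ± 2.04 in SEN and 278 ± 7.66 in BNPMT. Esm1, a secreted proteoglycan, stood at 3.07, 2.35 and 2.53 CPM in NC, 0.886, 1.22 and 1.22 in SEN, but 11.8, 10.8 and 12.3 in BNPMT. The receptor partner Ramp3 stood at 32.7 ± 1.34, 9.05 ± 1.44 and 76.2 ± 6.20 CPM, the scavenging chemokine receptor Ackr4 at 5.27 ± 1.15, 1.88 ± 0.441 and 12.3 ± 0.796, and the adenosine receptor Adora2b at 2.02 ± 0.0946, 0.359 ± 0.0510 and 4.96 ± 0.612. Smoc2, Esm1, Ramp3, Ackr4 and Adora2b all fell in SEN, by 1.17, 0.81, 1.40, 1.02 and 2.02 on the log2 scale (adjusted p at most 0.000848, that of Esm1). Hes6, a transcriptional cofactor of the NOTCH list, stood at 21.6 ± 1.31, 15.8 ± 1.07 and 46.7 ± 6.45 CPM and did not pass (adjusted p = 0.988). The neuropeptide receptor Adcyap1r1 stood at 0.554 ± 0.170, 0.319 ± 0.223 and 2.06 ± 0.411 CPM, and Draxin, an axon guidance protein, at 0.970 ± 0.339, 0.715 ± 0.154 and 3.55 ± 0.618. Their NC and SEN libraries overlapped, and neither passed (adjusted p = 0.454 and 0.996).

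No member was on the lists of cytokines and chemokines, interferon-stimulated genes or antigen presentation and complement, but these lists do not hold every such gene. Their tested genes number 23, 28 and 15, and members were 1.37% of the 10546 genes, so nothing is read from this. The members include the chemokine Cxcl16 and the antigen-presenting class I gene RT1-CE4, both named after their values were seen, as well as the cytokine Mif. Saa3, an acute-phase serum amyloid, stood at 0.232, 0.148 and 0.454 CPM in NC, 0.104, 0.0320 and 0.0566 in SEN, but 2.22, 3.31 and 3.05 in BNPMT. Its ratio to the higher of the other groups was the largest of all members, 10.3, at levels where 3 counts equal 0.0715 to 0.0961 CPM. Saa3 fell in SEN by 1.59 ± 0.63 (adjusted p = 0.0353), a call that was lost without NC 3, SEN 2 or SEN 3 (adjusted p = 0.176, 0.106 and 0.0914). Lcn2, which binds bacterial iron carriers, stood at 1.71, 1.41 and 1.53 CPM in NC, 1.75, 1.60 and 1.41 in SEN, but 6.51, 7.72 and 8.17 in BNPMT. Slpi, a protease inhibitor, stood at 2.33 ± 0.246, 1.21 ± 0.465 and 8.64 ± 1.37 CPM, and Cst6, a cysteine protease inhibitor, at 3.85 ± 0.651, 4.47 ± 0.178 and 16.6 ± 2.56. Mif, a cytokine, stood at 99.1, 103 and 103 CPM in NC, 108, 94.9 and 92.4 in SEN, but 229, 308 and 292 in BNPMT. Mif rose in SEN by 0.40 ± 0.10 on the TMM scale (adjusted p = 0.00227) but was -0.05 by total counts (adjusted p = 0.648). Lcn2 and Cst6 rose in SEN by 0.49 ± 0.18 and 0.66 ± 0.16 on the TMM scale (adjusted p = 0.0238 and 0.00169), and neither passed by total counts (adjusted p = 0.835 and 0.223). Ptges, a prostaglandin E synthase named after its values were seen, stood at 4.49 ± 0.157, 4.81 ± 0.440 and 14.7 ± 0.924 CPM.

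Mgarp stood at 0.435, 0.593 and 0.334 CPM in NC, 0.495, 0.545 and 0.594 in SEN, but 4.97, 5.70 and 5.46 in BNPMT. Its BNPMT mean was 11.8 times the NC mean, the largest such ratio among the members. Adig, an adipogenesis protein, stood at 0.963 ± 0.0791, 0.455 ± 0.179 and 4.45 ± 0.627 CPM. Fam25a stood at 0.418 ± 0.217, 0.880 ± 0.329 and 3.77 ± 0.822 CPM, and Syngr1, a synaptic vesicle protein, at 0.781 ± 0.382, 0.595 ± 0.302 and 3.20 ± 0.678. Prl8a9, of the prolactin family, had 3 counts in the 3 SEN libraries together and 246 in BNPMT, a ratio of 72.4 (95% interval 24.5 to 353, counting error only). The rule used the levels behind this ratio, so the interval is a description and no test. Fabp3, a fatty acid carrier, stood at 26.1 ± 3.43 CPM in NC, 15.2 ± 1.69 in SEN and 83.4 ± 12.9 in BNPMT. Rsph9, of the ciliary radial spoke, stood at 1.29 ± 0.137, 0.879 ± 0.152 and 3.40 ± 0.499.

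Of the 26 function lists, 10 held 1 to 3 members each and 16 held none. Members were 1.37% of the 10546 genes, so few per list would be met at that share. Nothing is read from these counts. Of 42 other tested genes of the NRF2 and antioxidant list, which holds Prdx5, 26 were higher and 8 lower in BNPMT than NC, and 8 were higher and 21 lower than in SEN (19 and 15 by total counts). Of 29 others of the fatty acid oxidation and PPAR list, which holds Fabp3, 14 were higher and 1 lower than in NC, and 15 were higher and 10 lower than in SEN. Of 58 others of the growth factor list, which holds Hgf, 10 were higher and 27 lower than in NC, and 12 were higher and 39 lower than in SEN. Of 59 others of the G protein-coupled receptor list, which holds Ramp3, Ackr4 and Adora2b, 9 were higher and 19 lower than in NC, and 19 were higher and 27 lower than in SEN (27 and 16 by total counts). Of 29 others of the NOTCH and Hedgehog list, which holds Hes6, 3 were higher and 16 lower than in NC. Against SEN, 2 of them were higher and 23 lower (6 and 14 by total counts). Of 16 others of the glucocorticoid list, which holds Lcn2, 6 were higher and 5 lower than in NC. Against SEN, 2 were higher and 12 lower. Of 32 others of the cilia list, which holds Rsph9, 9 were higher and 2 lower than in NC. Against SEN, 14 were higher and 11 lower. Of all tested genes, 26.3% were higher and 26.5% lower in BNPMT than NC. Against SEN, 40.7% were higher and 39.9% lower (57.3% and 25.8% by total counts). Leaving out the members removes from each list the genes highest in BNPMT.

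The most abundant member by CPM was S100a6, a calcium-binding protein, at 931, 971 and 992 CPM in NC, 786, 644 and 644 in SEN, but 1649.6, 2220.4 and 2151 in BNPMT. Lgals3, galectin-3 and a known nucleus pulposus protein, stood at 433, 449 and 450 CPM in NC, 389, 339 and 348 in SEN, but 814, 928 and 945 in BNPMT. The antioxidant enzyme Prdx5 stood at 178 ± 5.64, 114 ± 14.3 and 389 ± 47.9 CPM. Neither S100a6, Lgals3 nor Prdx5 passed the test in SEN against NC on the TMM scale, and all 3 fell by total counts (adjusted p = 0.000635, 0.000787 and 2.79e-05). With DESeq2's size factors Lgals3 rose instead, by 0.20 (adjusted p = 0.0179). Atp6v1d, a subunit of the lysosomal proton pump, stood at 98.5 ± 2.63, 113 ± 1.79 and 229 ± 14.5 CPM and rose in SEN by 0.65 ± 0.06 (adjusted p = 2.50e-07). Cdv3l1 stood at 88.4 ± 1.40, 98.0 ± 14.9 and 221 ± 31.6 CPM, and since it could share reads with the more abundant Cdv3, its level is uncertain.

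**Figure D3:**
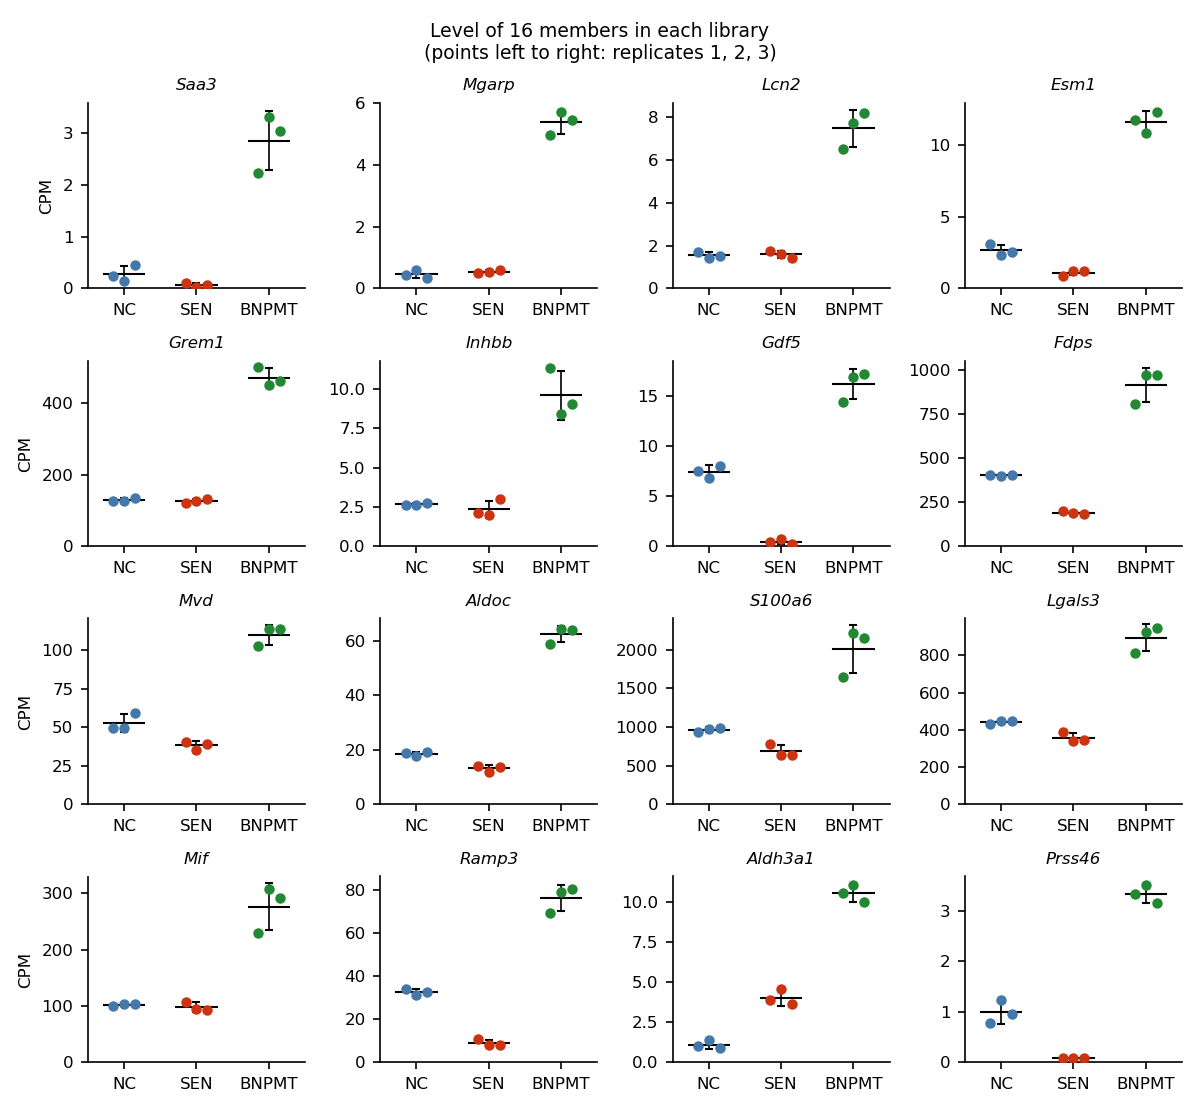
CPM of 16 members in each library (y axes from 0, 1 panel per gene; points are libraries 1 to 3 from left to right, lines and bars the mean ± SD). Every BNPMT point lies above all NC and SEN points, SEN is far below NC in Gdf5 and Ramp3, and BNPMT 1 is the lowest BNPMT library in Mif and S100a6.

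SEN against NC is the comparison that the rule did not use, although the rule holds both levels under that of BNPMT. By the edgeR test, 29 members rose in SEN (20.1%), beside 37.6% of all 14956 tested genes, and 51 fell (35.4%), beside 38.5%. The other 64 did not pass. The members' median log2 change was -0.08, and that of all genes -0.01. The split changed with the scale. By total counts alone 10 members rose and 93 fell, beside 24.5% and 56.9% of all genes, since that scale moves the median of all genes in SEN against NC to -0.46. Of the called members, 36.25% rose on the TMM scale and 9.71% by total counts. Among all genes called, 5628 rose and 5754 fell on the TMM scale, and 3667 rose and 8513 fell by total counts. After removal of the length trend 23 members rose and 69 fell, beside 37.7% and 41.4% of all genes, so that 25% of the called members rose. All 51 that fell on the TMM scale also fell by total counts, which adds no separate support since that scale moves changes downward.

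Among members with a gene symbol rather than a placeholder name, the largest called rises were in Aldh3a1, Crisp3, Scin and Fam25a, and the placeholder MGC105649 rose by 1.73 on the log2 scale. Aldh3a1, an aldehyde dehydrogenase, stood at 1.04, 1.41 and 0.907 CPM in NC, 3.88, 4.61 and 3.65 in SEN, but 10.6, 11.1 and 10.0 in BNPMT, and rose in SEN by 2.30 ± 0.17 (adjusted p = 3.24e-08). Its 3 groups did not overlap. Crisp3, a cysteine-rich secretory protein, rose by 1.79 ± 0.23 (adjusted p = 6.39e-06) and Scin, an actin-severing protein, by 1.53 ± 0.22 (adjusted p = 2.24e-05). The largest called falls were in Gdf5, Prss46, Prl8a9 and Pctp. Prss46, a serine protease, stood at 0.782, 1.24 and 0.955 CPM in NC, 0.0781, 0.0961 and 0.0848 in SEN, but 3.32, 3.50 and 3.14 in BNPMT. The SEN values of Prss46 are about that of 3 counts, so the size of its fall, 3.05 ± 0.37, rests on few counts. Pctp, a phosphatidylcholine carrier, stood at 2.85 ± 0.708, 0.291 ± 0.0597 and 6.996 ± 0.979 CPM and fell by 2.82 ± 0.28 (adjusted p = 6.23e-07).

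**Figure D4:**
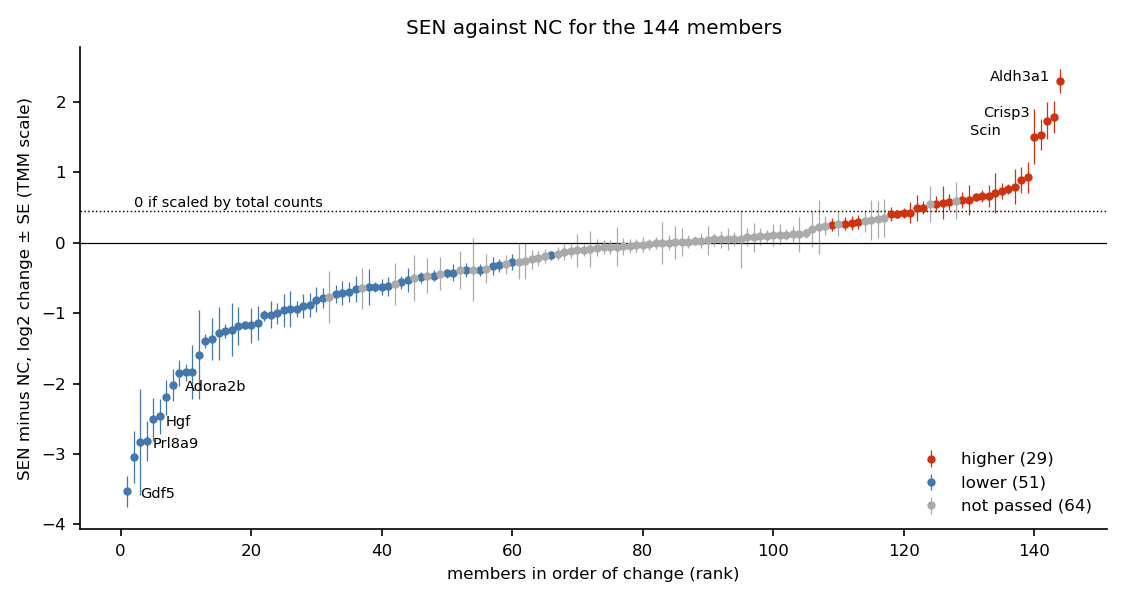
Log2 change in SEN against NC of the 144 members in order of change (y axis, TMM scale; bars are SE; red and blue mark those that rose and fell in the edgeR test). The 51 that fell reach -3.53 in Gdf5, the 29 that rose reach 2.30 in Aldh3a1, and the dotted line marks where 0 lies by total counts.

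The members were short genes. Their median length was 1612.5 bases, beside 3358 for the 10546 genes, and 62.5% of them lay in the shortest quartile. The rule took 3.41% of genes in the shortest quartile, 1.0997% and 0.569% in the next ones and 0.379% in the longest. Length also separated the BNPMT libraries. BNPMT 1 was the lowest BNPMT library in 98 members, beside 37.8% of the 10546 genes, in 92 of 119 members below the median length and in 6 of 25 above it. Mif, of 552 bases, and Fabp3, of 766 bases, were lowest there, whereas Hgf, of 6037 bases, was highest. With each library's length trend taken out, 64 genes met the rule, 53 of them members. This setting also takes out each library's overall shift in level. On TMM-scaled library sizes, which leave length as it is, 84 members met the rule, so the 64 do not show the part of length alone. Whether library quality or RNA fragment length has a part in the members' height was not tested.

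**Figure D5:**
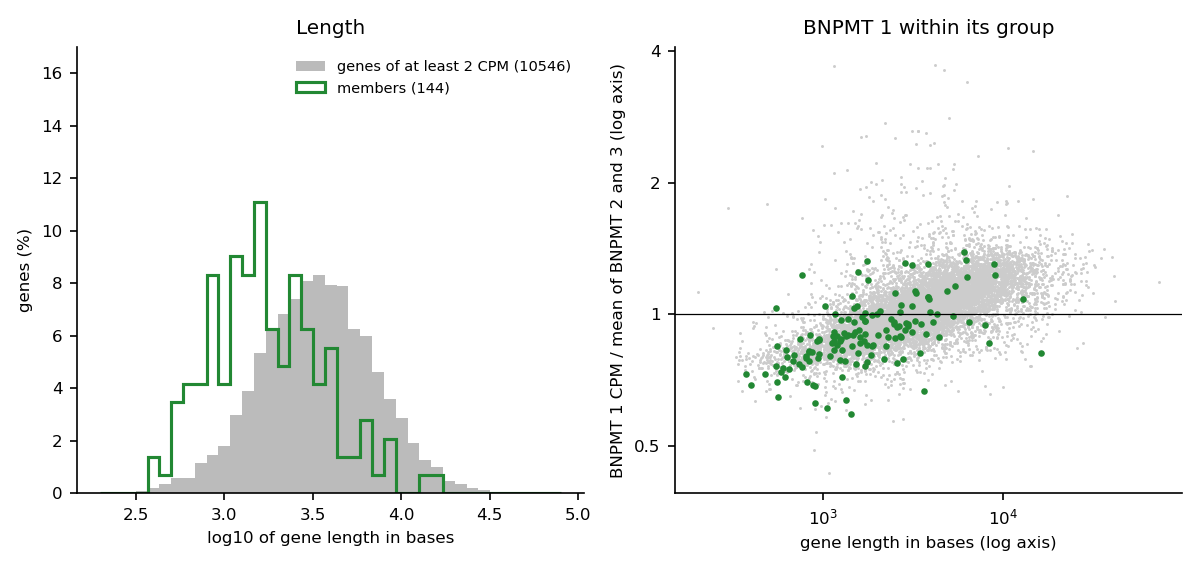
Left, log10 of gene length (x axis) against the share of genes in percent for members (green line) and for the 10546 genes (grey). Right, the level in BNPMT 1 over the mean of BNPMT 2 and 3 (y axis, log scale) against length (log scale); short members mostly lie below 1.

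On TMM-scaled library sizes 84 of the 144 members met the rule, and on DESeq2's size factors 77. Under all 13 settings of scale and left-out libraries 46 members met it, among them Saa3, Mgarp, Lcn2, Esm1, Grem1, Inhbb, Aldoc, Fabp3, Hgf and Adora2b. Fdps, Acat2, Mvd, Pmvk, Ebp and Gdf5 were not among the 46. Neither were the abundant members S100a6, Lgals3, Prdx5, Smoc2, Mif, Atp6v1d and Cdv3l1. Pfkl, Fam162a, RGD1562690, Galk2, Renbp, Amdhd2, Ramp3, Hes6, Aldh3a1, Scin, Ptges, Prl8a9, Adcyap1r1 and Rsph9 were not among them either. The members nearest inside the limit were Nupr2, Timm13, Tspan8 and Heatr4, with ratios of 2.0005 to 2.006. The genes nearest outside were Snapc2, Evi2a, Tnfaip8l1 and C8h11orf71, with ratios of 1.99.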

How the data were processed

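Per the submitters' processing notes, the tools were fastp, HISAT2 and HTSeq and the build was mRatBN7.2, with no versions or roles. Annotation and strandedness were not given in the sources used here, and reads of overlapping or antisense genes cannot be told apart. The authors deposited whole-number counts per gene for 22324 genes and an FPKM table, from which only gene lengths were used; an FPKM value deposited there is the count divided by length and total. Levels are CPM, the count over the library's total. They compare libraries, not genes, since CPM is not per length. The members and gene lists were chosen with earlier results of these data known.

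SEN was compared with NC in R 4.3.3 by edgeR 4.0.16's quasi-likelihood test on all 9 libraries (TMM, filterByExpr, 14956 genes, Benjamini-Hochberg threshold 0.05). The test was also run on simulated counts in which few genes changed, as many up as down. Most genes were called in the real data, so that run cannot show how the test performs here. BNPMT against NC and SEN was fitted in the same model for genes that are no members. Alternatives were DESeq2 1.42.0, other scales and filters, and left-out libraries. Named genes are the 10 most abundant members, the 12 of largest ratio, up to 3 per list, the 4 largest called rises and falls and the genes at the limit, leaving out placeholder names; others are said to be chosen after seeing values. No libraries were duplicates (chi-square per degree of freedom at least 3.51). Promoters were matched by gene from RefSeq on GRCr8; other coordinates are not used. Intervals and floors of 3 counts cover counting error only. Some items are not reported here.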

Additional observations from a re-analysis of the deposited data

How the results depend on the processing

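The number of genes that met the rule was 84 on TMM-scaled library sizes, 77 on DESeq2's size factors, 64 with the length trend taken out, 820 and 23 with limits of 1.5 and 3 times, 75 with a minimum of 10 CPM, and 122 to 179 with 1 library left out. For SEN against NC, 10 members rose and 93 fell with total counts alone, beside 24.5% and 56.9% of all genes. With 1 library left out, 23 to 31 members rose and 47 to 55 fell. Of the 15122 to 15398 genes tested in those fits, 5493 to 5915 rose and 5575 to 6013 fell. Of 27 named members called in that comparison, 17 kept call and direction in all 18 alternatives and 7 lost one or the other with total counts alone. Mgarp, Lcn2, Saa3, Fabp3 and Nupr2 lost the call in at least 1 of the fits with a library left out. Of the 17 named members not called, 13 were called in at least 1 alternative and 12 changed sign. The cause was not tested.

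The log2 changes whose sign differed from that of the main test were as follows. With total counts alone they were Lgals3 -0.31, Grem1 -0.042, Mif -0.048, Syngr1 -0.39, Draxin -0.45, Inhbb -0.18, Hes6 -0.45, Timm13 -0.42 and Tspan8 -0.37. With the length trend taken out they were Lgals3 -0.018, Mif -0.059, Draxin -0.0049, Hes6 -0.11, Timm13 -0.28 and Tspan8 -0.022. With DESeq2's size factors in edgeR they were S100a6 0.031, Mvd 0.058, Pmvk 0.022 and Aldoc 0.037, and with DESeq2's Wald test S100a6 0.013, Mvd 0.040, Pmvk 0.0038 and Aldoc 0.020. With a filter of 1 CPM in 3 libraries they were S100a6 0.011, Mvd 0.038, Pmvk 0.0018 and Aldoc 0.017, with no filter Draxin -0.057, Hes6 -0.057 and Timm13 -0.026, and with NC and SEN fitted alone Mvd 0.0032. Without SEN 1 and BNPMT 1 together they were Syngr1 -0.47, Draxin -0.12, Hes6 -0.063 and Timm13 -0.076. With 1 library left out, the values ranged from -0.14 to 0.018 for S100a6, -0.47 to 0.46 for Syngr1, -0.16 to 0.32 for Draxin, -0.062 to 0.043 for Hes6, -0.057 to 0.076 for Mvd, -0.090 to 0.022 for Pmvk, -0.081 to 0.042 for Aldoc, -0.20 to 0.026 for Rsph9, -0.074 to 0.087 for Timm13 and -0.092 to 0.21 for Tspan8.

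With the replicate block 28 members rose and 50 fell, beside 5517 and 5626 of all 14956 tested genes, and Draxin was -0.0033 and Mvd 0.0036. Same-numbered NC and SEN libraries did not deviate together (correlations -0.02, 0.06 and -0.01), so the numbers were not taken as a pairing.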
